A study of Mus musculus with 4 samples.

Results

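Mitochondrial ribosomal protein genes were followed in mouse bone marrow cells sorted as Thy1+ LSK, where LSK stands for lineage-negative cells with Sca-1 and Kit at their surface and the sort enriches haematopoietic stem cells. The members were all genes whose array row carried exactly 1 gene symbol beginning with Mrps or Mrpl and a number. They came to 71 of the 22180 genes with such a row, 28 named for the small subunit and 43 for the large. A further 7 genes of these names (Mrpl30, Mrpl33, Mrpl41, Mrpl43, Mrpl44, Mrpl53 and Mrps6) lay only on rows shared with another gene and have no value here. There were 4 arrays, 2 of Nol3+/+ mice and 2 of Nol3-/- MPN mice. MPN is taken as myeloproliferative neoplasm, and the sample labels give it to the Nol3-/- mice only, although the series title can be read as giving it to both genotypes. Both groups were on the C57BL/6 background, aged 11 to 18 months and untreated, and their cells were not cultured. How the deletion was made, the sex of the animals and whether an array held the RNA of 1 mouse or of several are not given in the labels, so the p-values measure only the spread between these arrays. In this bulk RNA, fewer cells of a type and less RNA per cell cannot be told apart.

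Mitochondria translate a small set of messages, nearly all for core subunits of the respiratory chain, on their own ribosome. Its RNA is made from mitochondrial DNA, while its proteins are encoded in the nucleus, made in the cytosol and imported. Many descend from bacterial ribosomal proteins, and others are found only in mitochondria. The small subunit reads the message, and the large subunit joins the amino acids and holds the exit tunnel, which sits at the inner membrane. Haematopoietic stem cells are known for low mitochondrial respiration, which rises as they differentiate.

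Promoters are shown first because the symbol rule did not use them and because they held motifs of known regulators in a larger share of members than of all genes. RefSeq windows of GRCm38.p6, running from 250 bases before to 50 bases after the annotated start, were found for 62 of the 71 genes. They were searched on both strands for 3 motifs of factors known to act on nuclear genes for mitochondria. These were NRF1 (GCGCA, any base, then GCGC), the ETS motif bound by GABP (CCGGAAG) and YY1 (AANATGGCG), and their letters can overlap where they share bases. At least 1 motif was present in 37 of the 62 genes (59.7%) and no single motif in most of them. The share with any of the 3 compares with 15.9% of 27025 genes with a window and 20.9% of 17492 protein-coding genes. The ETS motif was present in 37.1% of members against 12.9% of protein-coding genes, NRF1 in 17.7% against 7.17% and YY1 in 17.7% against 3.64%. The small subunit (60% of 25 genes) and the large subunit (59.5% of 37) had nearly equal shares. A match is a run of letters, not a measured binding site. Shares were not computed for other mitochondrial genes or for genes of the cytosolic ribosome, so whether they are particular to these members was not tested.

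The bases upstream of the start are printed below for the 2 members of each subunit with the smallest p in the comparison of the groups and for the Mrps18 paralogs, each 250 bases long on the strand of the gene, with motif matches in capitals. For Mrpl2, which has several annotated starts, the most upstream one is shown. The coordinates of the printed stretches are chr17:46645971-46646220 (plus strand) for Mrpl2, chr11:115403502-115403751 (plus strand) for Mrpl58, chr2:127587176-127587425 (plus strand) for Mrps5, chr5:100798509-100798758 (plus strand) for Mrps18c, chr17:46110754-46111003 (plus strand) for Mrps18a and chr17:35916441-35916690 (minus strand) for Mrps18b.
Mrpl2: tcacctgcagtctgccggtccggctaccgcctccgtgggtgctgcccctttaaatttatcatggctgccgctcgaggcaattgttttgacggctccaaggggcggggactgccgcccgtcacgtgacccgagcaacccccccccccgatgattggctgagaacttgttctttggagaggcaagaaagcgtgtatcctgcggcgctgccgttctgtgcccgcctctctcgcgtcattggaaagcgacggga
Mrpl58: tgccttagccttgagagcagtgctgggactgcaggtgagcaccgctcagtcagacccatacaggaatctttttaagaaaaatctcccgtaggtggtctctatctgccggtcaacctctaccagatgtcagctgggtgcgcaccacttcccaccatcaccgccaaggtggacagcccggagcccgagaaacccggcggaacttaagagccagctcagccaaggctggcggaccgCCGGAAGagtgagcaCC
Mrps5: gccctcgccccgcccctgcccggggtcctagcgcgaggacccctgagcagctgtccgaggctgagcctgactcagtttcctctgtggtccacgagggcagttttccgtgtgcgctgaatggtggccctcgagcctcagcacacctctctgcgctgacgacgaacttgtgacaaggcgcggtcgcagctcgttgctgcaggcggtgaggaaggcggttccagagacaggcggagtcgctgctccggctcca
Mrps18c: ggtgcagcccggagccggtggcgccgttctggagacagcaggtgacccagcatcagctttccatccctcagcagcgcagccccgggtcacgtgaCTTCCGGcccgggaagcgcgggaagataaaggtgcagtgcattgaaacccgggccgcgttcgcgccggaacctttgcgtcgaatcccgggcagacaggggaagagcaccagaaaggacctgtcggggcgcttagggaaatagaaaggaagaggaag
Mrps18a: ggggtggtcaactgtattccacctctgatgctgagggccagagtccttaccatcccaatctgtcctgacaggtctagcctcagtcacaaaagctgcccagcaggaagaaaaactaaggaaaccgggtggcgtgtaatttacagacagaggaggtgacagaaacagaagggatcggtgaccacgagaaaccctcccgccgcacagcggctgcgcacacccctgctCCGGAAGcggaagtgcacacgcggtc
Mrps18b: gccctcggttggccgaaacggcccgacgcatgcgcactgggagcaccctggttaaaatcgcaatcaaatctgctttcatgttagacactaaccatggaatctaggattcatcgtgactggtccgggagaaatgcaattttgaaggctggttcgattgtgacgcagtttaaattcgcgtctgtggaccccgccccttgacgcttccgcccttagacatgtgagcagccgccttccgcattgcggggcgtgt
Mrpl58 held ETS matches with their first base at -17 and -2, where the annotated start is 0, of which the second runs past the printed end, and a YY1 match at 20. Among the Mrps18 paralogs, Mrps18a held an ETS match at -26 and a YY1 match at 11, Mrps18c held an ETS match on the opposite strand at -156, and the ETS match of Mrps18b lay on the opposite strand at 43, beyond the printed stretch. Mrpl2 and Mrps5 held none of these letters in the window.

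The series as a whole sets limits on what the members can show. Array medians ran from 5.35 to 5.39 log2 units, and across 16635 tested genes Nol3+/+ replicate 1 stood apart, at r = 0.911 with Nol3+/+ replicate 2 and at 0.899 and 0.908 with the Nol3-/- MPN arrays, against 0.929 to 0.949 among the other arrays. Genes are not independent replicates in these correlations. Xist, the RNA of the inactive X chromosome, averaged 5.36 in Nol3+/+ and 10.8 in Nol3-/- MPN. The Y-linked genes Eif2s3y, Uty and Kdm5d had the opposite order. Their Nol3+/+ means were 6.85, 6.10 and 5.48, against 4.11, 4.60 and 4.29 for Nol3-/- MPN. Signal of both sex chromosomes thus divides the arrays as the genotype does and cannot be told apart from it. Of the members, 0 lie on the X or Y chromosome, but whether members on other chromosomes differ by sex was not tested. The Nol3 row read 5.31 and 5.52 against 5.38 and 5.50 and does not check the labels, since the position of the deletion relative to its probes is not given. Kit read 8.07 and 8.10 against 8.38 and 7.39, and Thy1 4.74 and 5.02 against 4.64 and 5.24. Of the granulocyte and monocyte markers tested, 5 of 8 had lower means in Nol3-/- MPN. The median signal of all 11 measured was 6.27 and 6.38 against 6.05 and 5.98, with Nol3+/+ given first here and below. Relative to each gene's own mean, the median over these 11 was -0.087 and 0.035 against -0.042 and 0.098, so the groups overlapped. Over these 11 the median log2 difference was -0.02, and over the 8 tested it was -0.25. At an unadjusted limma p under 0.05, 2 of the 8 were lower, S100a8 (-0.86) and S100a9 (-0.83), and 0 were higher. Among all genes these shares were 2.07% and 3.73%. For the erythroid markers the median signal was 5.92 and 5.86 against 5.81 and 5.81. Relative to each gene's own mean it was 0.016 and 0.028 against -0.040 and 0.025, with overlap. Median signals of megakaryocyte markers were 5.27 and 5.15 against 5.14 and 5.36, and of B cell markers 5.12 and 5.20 against 5.32 and 5.36. Those of T and NK cell markers were 5.39 and 5.34 against 5.36 and 5.46. Markers of stem cells had 5 of 8 tested genes lower, with medians of 5.85 and 5.88 against 5.58 and 5.69. Relative to each gene's own mean they were at 0.15 and 0.10 against -0.036 and -0.076. For B cell markers this was -0.13 and -0.049 against -0.016 and 0.12, and for T and NK cell markers -0.0023 and -0.012 against 0.0086 and 0.015. These 3 lists had no overlap, unlike megakaryocyte markers. At an unadjusted limma p under 0.05 (5.80% of all genes) were also Hlf (-0.83), Pf4 (0.59) and Cd79b (0.50). The part of these differences in the values of the members was not tested.

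The comparison asked whether the genes of the mitochondrial ribosome were expressed at other levels in Nol3-/- MPN cells than in Nol3+/+ cells. No member passed the threshold over all genes tested. Of the 71 members, 64 were bright enough to test, 25 of the small subunit and 39 of the large. Limma called 0 of them by adjusted p under 0.05, where it called 4 of all 16635 genes (0.0240%), Xist among them. The smallest adjusted p among members was 0.841 and 12 members shared it. At an unadjusted p under 0.05 there were 5 members of 64 (7.81%), close to the 5.80% of all genes, 3 of them higher and 2 lower in Nol3-/- MPN. When Nol3+/+ replicate 2 was left out, 10 members reached that p, 2 of the 5 among them, beside 11.4% of all genes. When Nol3-/- MPN replicate 2 was left out, 3 members did, 1 of the 5 among them. The counts were 6 and 5 when the first replicate of either group was left out, with 3 and 2 of the 5 among them. Each of the 5 lost this call in at least 1 of these 4 fits. The arrays of the groups lay apart, with every array of one group above both of the other, for 22 of the 64 members (34.4%), against 35.5% of all genes. The 95% interval of the log2 difference lay within 2-fold in either direction for 47 of the 64 members (all genes: 83.1%), and for the other 17 it reached beyond.

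The small subunit was balanced between higher and lower values. Of its 25 tested genes, 14 had higher and 11 lower means in Nol3-/- MPN (mean higher in 51.7% of all genes), and the median log2 difference was 0.04, against 0.01 for all genes. Relative to each gene's own mean, the median over all 28 genes was 0.02 and -0.02 for Nol3+/+ and -0.03 and 0.06 for Nol3-/- MPN, so the groups overlapped. The median log2 difference was -0.048 without Nol3-/- MPN replicate 2, 0.087 without Nol3-/- MPN replicate 1 and 0.0095 without Nol3+/+ replicate 2. Groups lay apart for 4 higher and 4 lower genes of the 25, or 16% each way, against 19.7% higher and 15.9% lower among all genes. At an unadjusted p under 0.05, 0 genes were higher (3.73% of all genes) and 1 was lower (2.07% of all genes).

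Among tested genes, the large subunit leaned towards higher values, by a small amount. Of its 39 tested genes, 26 (66.7%) had higher and 13 lower means in Nol3-/- MPN, against 51.7% higher among all genes. The median log2 difference was 0.10, and 0.087 over all 43 measured. The filter on dim genes bears on this count. Of the higher genes, Mrpl2, Mrpl20 and Mrpl23 had Nol3+/+ means under its limit. Of the lower genes, Mrpl58 had a Nol3-/- MPN mean under it. All 4 genes left out as too dim had lower means. Relative to each gene's own mean, the median over all 43 genes was -0.039 and -0.11 for Nol3+/+ and -0.037 and 0.10 for Nol3-/- MPN. The groups did not overlap, but Nol3+/+ replicate 1 and Nol3-/- MPN replicate 1 were almost level. The median log2 difference was 0.22 without Nol3+/+ replicate 1, 0.15 without Nol3-/- MPN replicate 1 and 0.12 to 0.13 without either of the other arrays. The arrays did not overlap for 11 higher genes (28.2%) and 3 lower genes (7.69%), against the same 19.7% and 15.9% of all genes. At an unadjusted p under 0.05 there were 3 higher genes (3.73% of all genes) and 1 lower (2.07%). The difference between the subunits was not tested.

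**Figure D1:**
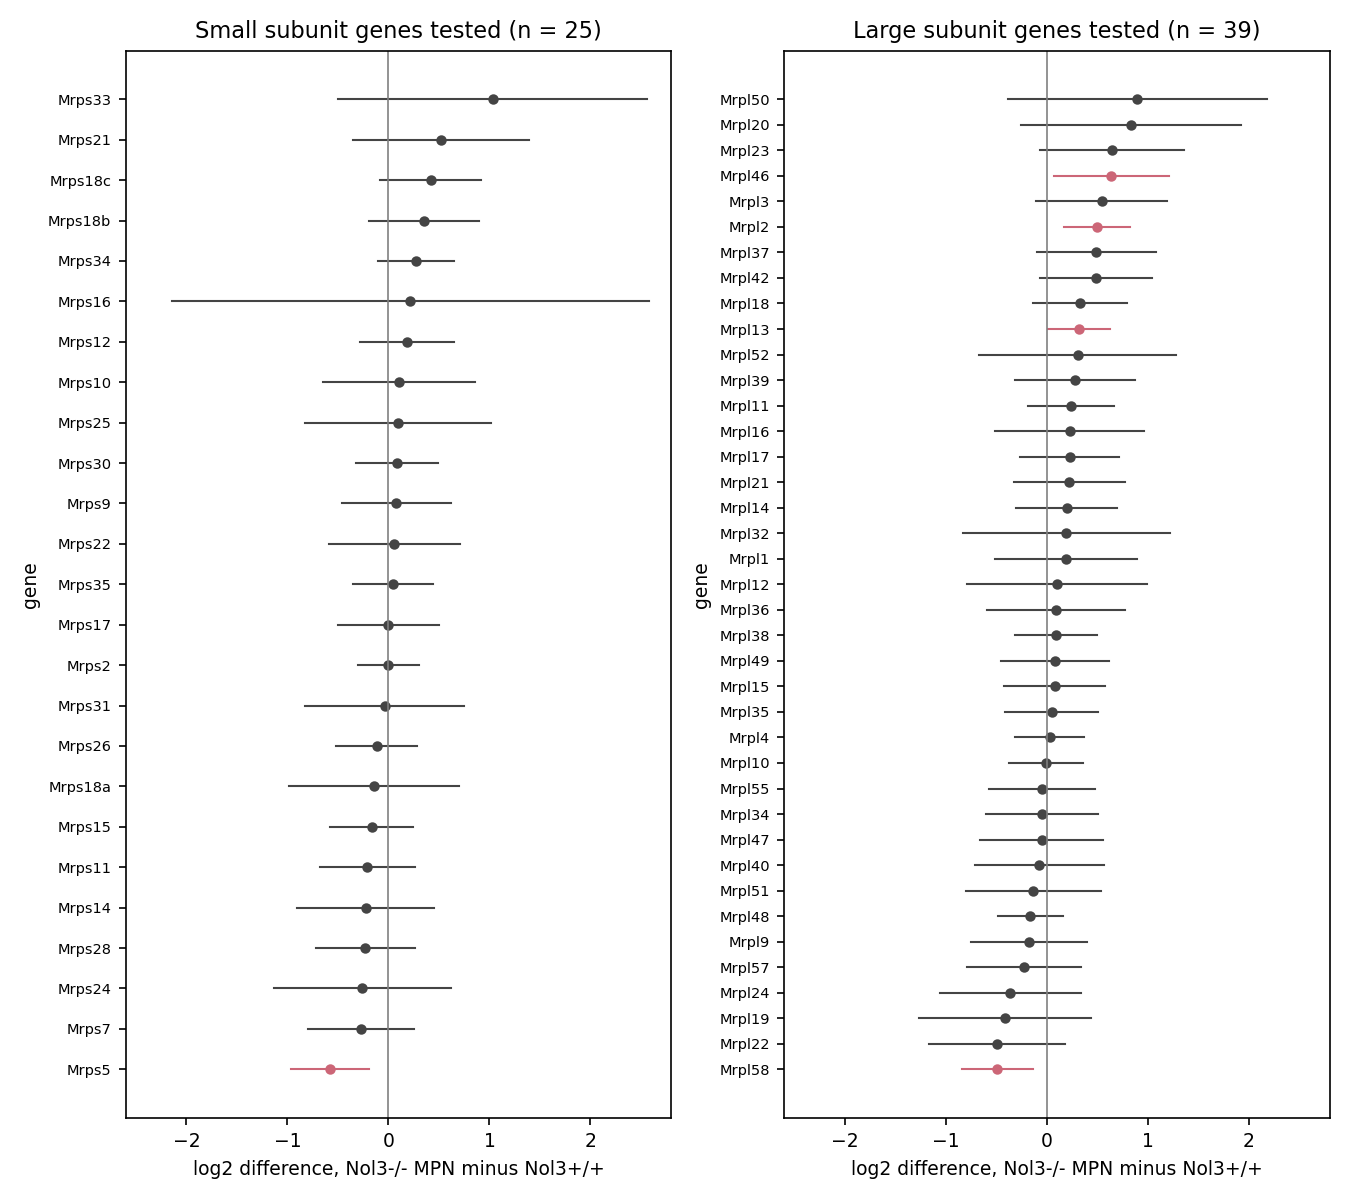
Log2 difference (Nol3-/- MPN minus Nol3+/+) of each tested mitochondrial ribosomal protein gene, with limma's 95% interval as a line, 25 genes of the small subunit on the left and 39 of the large on the right. Red marks the 5 genes at an unadjusted p under 0.05 (Mrps5, Mrpl58, Mrpl2, Mrpl46 and Mrpl13), and the intervals of the other 59 genes include 0.

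Among proteins of the large subunit with bacterial relatives, Mrpl2 had the smallest p. It encodes a core protein near the site where peptide bonds form. The Nol3+/+ arrays read 4.87 and 4.70 and the Nol3-/- MPN arrays 5.31 and 5.25. On the log2 scale the difference was 0.50 (SE 0.13, 95% interval 0.17 to 0.82, limma adjusted p = 0.841). The groups did not overlap, but the Nol3+/+ mean of 4.79 lay under the limit for dim genes of 4.835, so the gene was tested because its Nol3-/- MPN signal was higher. Mrpl13, another core protein, read 4.95 and 5.03 against 5.32 and 5.29, 0.31 higher in the mean (SE 0.12, limma adjusted p = 0.841). Here too the arrays of a group were close together and the groups stood apart, by 1.24-fold. Its unadjusted limma p of 0.046 did not hold with the replicate number as a block (0.078), without the variance trend (0.074) or with any array left out (0.077 to 0.151). Mrpl23, which lies at the exit of the peptide tunnel, read 4.58 and 4.77 against 4.92 and 5.72, and its Nol3+/+ mean was also under that limit. Mrpl3, mutated in some human respiratory chain deficiencies, read 6.20 and 6.75 against 7.07 and 6.95, 0.54 higher in the mean (95% interval -0.11 to 1.19). The groups did not overlap for either gene, and the intervals of both included 0. Without Nol3+/+ replicate 1 the Mrpl3 difference was 0.26, and without Nol3+/+ replicate 2 it was 0.82. That of Mrpl23 was 0.25 without Nol3-/- MPN replicate 2 and 1.05 without Nol3-/- MPN replicate 1.

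Other genes of this kind had lower values. Mrpl22, a protein of the tunnel wall, read 5.86 and 5.55 against 4.87 and 5.56, so that only Nol3-/- MPN replicate 1 was low. Mrpl24 read 8.07 and 7.53 against 7.51 and 7.36, with no overlap although the gap between Nol3+/+ replicate 2 and Nol3-/- MPN replicate 1 was small. Mrpl19 read 6.83 and 6.04 against 6.28 and 5.76, and its groups overlapped. Mrpl12 forms the stalk that receives translation factors and is also known to bind the mitochondrial RNA polymerase. It read 7.03 and 7.67 against 7.13 and 7.77, 0.10 higher in the mean (95% interval -0.79 to 0.99). Its replicate arrays differed more within each group than the groups did. Mrpl36, one of the smallest proteins of the subunit, read 7.17 and 6.62 against 7.10 and 6.86. Of all 25 tested genes of the large subunit with bacterial relatives, 18 had higher means, with a median log2 difference of 0.19. Among all genes, 51.7% had higher means and the median was 0.01. Over all 27 measured genes of this kind, including those too dim to test, the median was 0.10.

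Among large-subunit proteins found only in mitochondria, 8 of 13 tested genes had higher means and the median log2 difference was 0.09. Mrpl46, of the central protuberance, was at an unadjusted p under 0.05. It read 4.99 and 5.22 against 5.47 and 6.03, 0.64 higher in the mean (SE 0.22, 95% interval 0.07 to 1.21, limma adjusted p = 0.841). The groups did not overlap, and the Nol3-/- MPN arrays were 0.56 log2 units apart. Without Nol3-/- MPN replicate 2 the difference was 0.36, with an unadjusted limma p of 0.131, and without Nol3+/+ replicate 1 that p was 0.116. Mrpl42 and Mrpl39 had the brightest rows of the subunit, which says nothing of their abundance since signals of different rows are not on one scale. Mrpl42 read 8.63 and 8.89 against 9.33 and 9.16, and Mrpl39 read 8.25 and 7.96 against 8.33 and 8.44. Both were higher in both Nol3-/- MPN arrays, with intervals that included 0. Mrpl48 read 5.51 and 5.50 against 5.28 and 5.41, and Mrpl57 6.46 and 6.48 against 6.01 and 6.49, so that only the first had no overlap. Mrpl50, named here for its size of change after its values were seen, had the largest positive difference of the subunit, 0.90, with an SE of 0.50. It came from Nol3-/- MPN replicate 2 alone, at 7.83, while the other arrays read 6.24, 6.12 and 6.32.

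Mrpl58 differs from the rest in function, since it is a peptidyl-tRNA hydrolase of the large subunit that frees stalled ribosomes. Nol3+/+ arrays were at 5.14 and 5.25 and Nol3-/- MPN arrays at 4.81 and 4.60, which gave a difference of -0.49 (SE 0.14, 95% interval -0.84 to -0.14, limma adjusted p = 0.841). It was the lowest difference of the subunit, and the Nol3-/- MPN mean of 4.70 lay under the limit for dim genes. Of the 64 tested members, 4 had a group mean under this limit (Mrpl2, Mrpl20, Mrpl23 and Mrpl58), and 2 of these were among the 5 at an unadjusted p under 0.05.

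**Figure D2:**
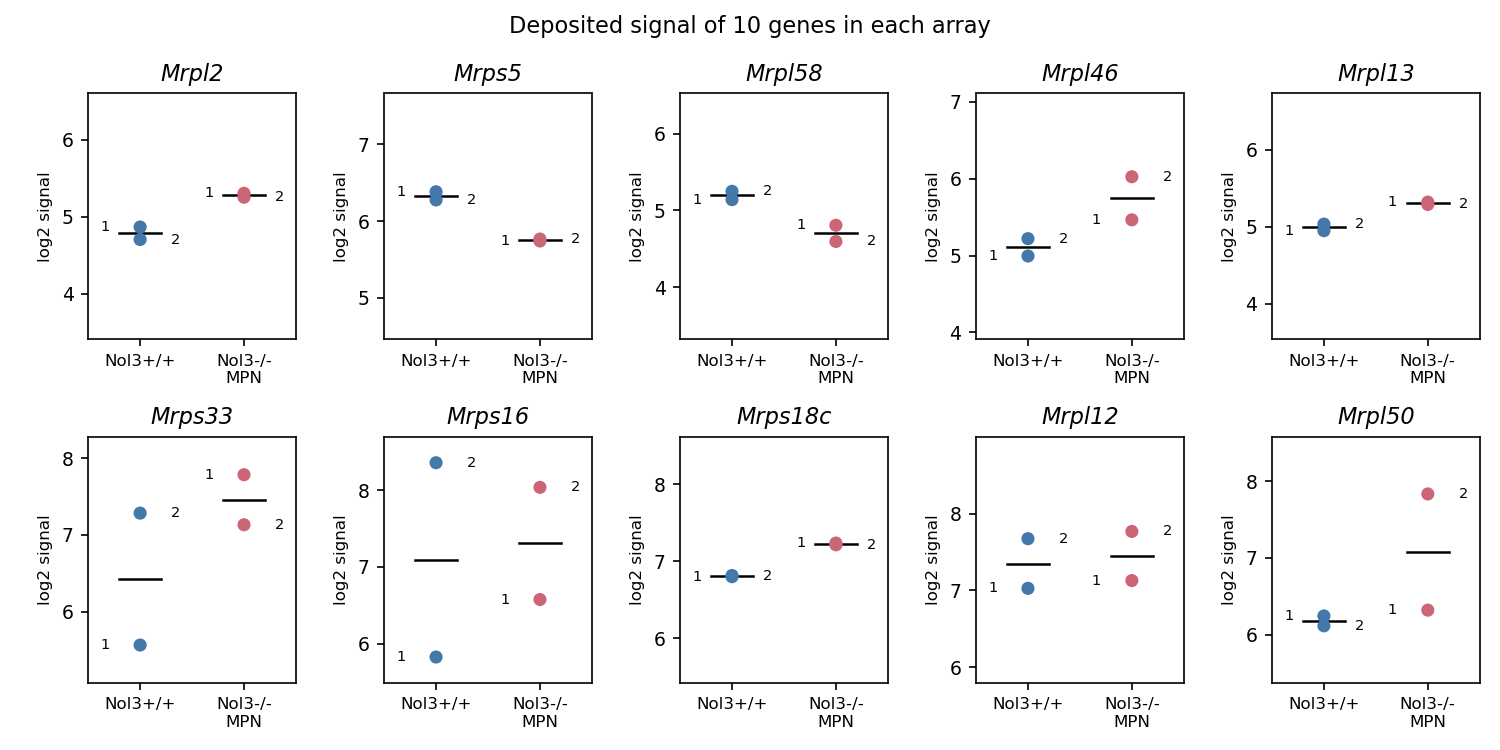
Deposited log2 signal of 10 genes in each of the 4 arrays, with Nol3+/+ in blue, Nol3-/- MPN in red, the replicate number beside each point and the group mean as a black line; every panel spans 3.2 log2 units. The upper row holds the 5 genes at an unadjusted p under 0.05, whose groups stand apart, and the lower row holds Mrps33, Mrps16, Mrpl12 and Mrpl50, whose replicates lie far apart, with Mrps18c at 6.80 and 6.81 against 7.24 and 7.21.

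In the small subunit, genes with bacterial relatives had 7 higher and 8 lower means among 15 tested, with a median log2 difference of 0.00. Mrps5, a protein near the entry of the message, was the only small-subunit gene at an unadjusted p under 0.05. Nol3+/+ arrays were at 6.38 and 6.28 and Nol3-/- MPN arrays at 5.74 and 5.77, which gave a difference of -0.58 (SE 0.15, 95% interval -0.96 to -0.19, limma adjusted p = 0.841), or 1.49-fold. Both Nol3-/- MPN arrays were lower than both Nol3+/+ arrays. A second, dimmer row of Mrps5 read 5.11 and 5.17 against 5.12 and 5.39, a difference of 0.12, so the rows of this gene disagreed. With the mean of all rows of a gene, the count of lower small-subunit genes at an unadjusted p under 0.05 was 0. Mrps7 read 6.80 and 6.65 against 6.31 and 6.61, Mrps11 6.48 and 6.27 against 6.07 and 6.26, and Mrps15 5.80 and 6.07 against 5.80 and 5.74. These were lower without overlap, by small gaps, with limma adjusted p from 0.878 to 0.915. Mrps28 and Mrps14 differed by -0.23 and -0.23 with overlap between the groups. Mrps12, a protein of the decoding site, read 6.13 and 6.32 against 6.32 and 6.50. Mrps21 read 6.21 and 5.22 against 6.30 and 6.17, where Nol3+/+ replicate 2 alone was low. The Mrps17 difference was 0.00 with an interval from -0.50 to 0.50.

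Small-subunit genes found only in mitochondria had 6 higher and 2 lower means among 8 tested, with a median of 0.08. Mrps34, mutated in some human respiratory chain deficiencies, read 5.87 and 5.81 against 6.15 and 6.09, 0.27 higher in the mean (95% interval -0.10 to 0.65). Its groups did not overlap. Mrps22 read 7.05 and 7.51 against 7.42 and 7.26, with a difference of 0.06. Mrps33 had the largest difference of any tested member, 1.03 or 2.05-fold, and was the only one past 2-fold (1.78% of all genes). It read 5.57 and 7.28 against 7.78 and 7.13, so the difference came from Nol3+/+ replicate 1 alone and the groups overlapped (SE 0.60, limma adjusted p = 0.853). Without Nol3+/+ replicate 1 the difference was 0.17. Without Nol3+/+ replicate 2 it was 1.89, with a limma adjusted p of 0.205.

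The Mrps18 genes are a family of paralogs related to a single bacterial protein, which the mammalian ribosome keeps in different places. Mrps18b and Mrps18c belong to the small subunit, and Mrps18a to the large subunit despite its name. Mrps18b was counted above with the genes found only in mitochondria, as ribosome nomenclature has it. Mrps18c was at 6.80 and 6.81 against 7.24 and 7.21, 0.42 higher in the mean (SE 0.20, limma adjusted p = 0.841). Mrps18b read 7.38 and 7.39 against 7.80 and 7.67, a difference of 0.35 (limma adjusted p = 0.857). In both genes the Nol3+/+ arrays were nearly equal and both Nol3-/- MPN arrays were higher. The second row of Mrps18c read 5.28 and 5.48 against 5.61 and 5.57 and had the same direction, and that of Mrps18b read 5.22 and 5.57 against 5.56 and 5.38 and overlapped. Mrps18a read 5.60 and 6.23 against 5.41 and 6.14, -0.14 apart in the mean (95% interval -0.98 to 0.70). Mrps30, also placed in the large subunit, read 5.94 and 5.94 against 6.14 and 5.91.

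Of the members, 7 were too dim to be tested. Mrpl27 and Mrpl45, the dimmest rows of the large subunit, read 4.16 and 4.23 against 3.93 and 3.91, and 4.83 and 4.43 against 4.46 and 4.53. Mrpl45 ties the ribosome to the inner membrane. Mrps36 and Mrps23 were the dimmest of the small subunit. Mrps36 is a part of the 2-oxoglutarate dehydrogenase complex rather than of the ribosome, and read 4.41 and 4.07 against 4.27 and 4.42. Mrps23 read 4.38 and 4.43 against 4.20 and 4.38. Mrpl28, Mrpl54 and Mrps27 differed by -0.25, -0.08 and -0.16 in their deposited signals. Of these 7 members, Mrps36 alone had a higher mean in Nol3-/- MPN. Mrpl27, Mrpl28, Mrps23 and Mrps27 were lower without overlap, beside 15.9% of the genes tested, at signals that may be background.

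Replicate arrays differed strongly in a few members. The gap between the arrays of 1 group was at least 1 log2 unit in 4 of the 64 tested members (6.25%), against 5.67% of all genes. Mrps16, mutated in a human respiratory chain deficiency, was the only member with such a gap in both groups. Its values were 5.83 and 8.36 against 6.58 and 8.04, low in replicate 1 and high in replicate 2 of each, and the 95% interval of the group difference ran from -2.15 to 2.58. Its dimmer row read 3.94 and 6.59 against 3.90 and 4.73 and had the same order. Mrps17 behaved in the opposite way in its dimmer row, at 6.95 and 5.94 against 7.01 and 6.02, while its brighter row read 7.02 and 6.96 against 6.96 and 7.02. Over the 64 tested members the gap had the same sign in both groups in 51.6%, against 50.2% of all genes. Across these 64 genes the gaps of the groups correlated at r = 0.337, and at r = 0.166 across 63 genes without Mrps16, against 0.0485 across all 16635 genes. This is a description across genes that share the same arrays, and leaving out Mrps16 was chosen after its values were seen. Of 9 members with several rows, the rows of 4 disagreed in the sign of the group difference. They were Mrpl12, Mrpl47, Mrps16 and Mrps5, of which Mrpl47 differed by -0.05 and 0.02. The rows of Mrpl10 differed by -0.01 and -0.29, and those of Mrpl36 by 0.09 and 0.05.

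**Figure D3:**
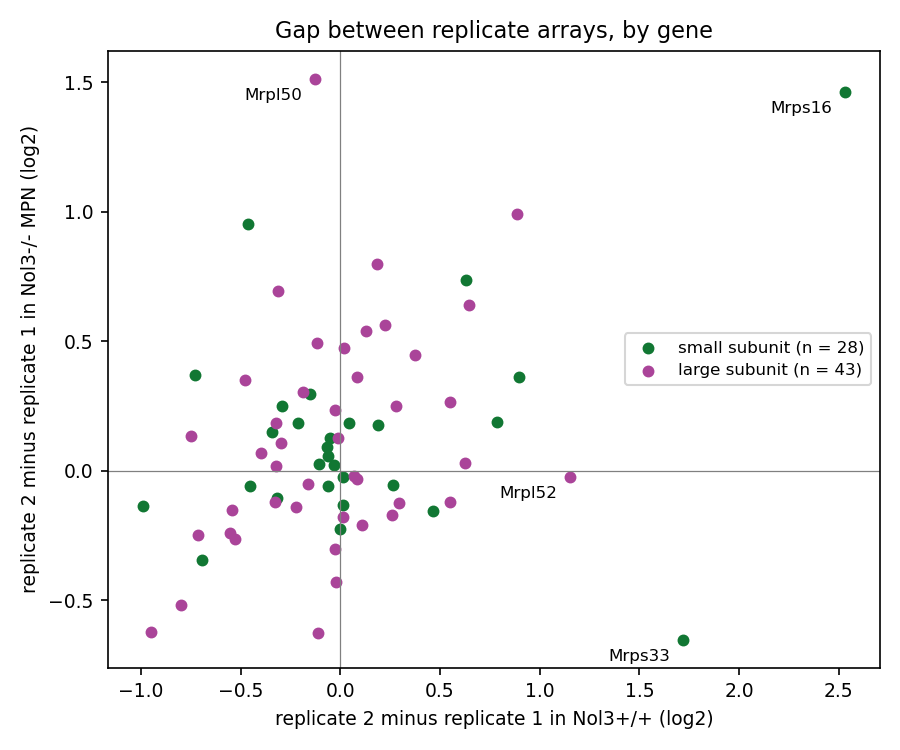
Gap between the replicate arrays (replicate 2 minus replicate 1, log2 units) in Nol3+/+ on the horizontal and in Nol3-/- MPN on the vertical axis, a point for each of the 28 small-subunit (green) and 43 large-subunit (purple) genes. Mrps16 lies far out in both groups, while Mrps33 and Mrpl52 do so in Nol3+/+ and Mrpl50 in Nol3-/- MPN.

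Other genes of mitochondrial translation were given by lists of their roles. Proteins of the ribosome under other symbols had 3 of 7 listed symbols with a row. Dap3 read 5.47 and 5.44 against 5.57 and 5.60, Ptcd3 7.89 and 7.71 against 8.10 and 7.51, and Gadd45gip1, too dim to test, 5.26 and 4.65 against 4.45 and 4.92. Assembly and ribosomal RNA factors had 9 higher and 8 lower means among 17 tested, with a median of 0.01 and 0 at an unadjusted p under 0.05. Noa1, a GTPase of small-subunit assembly, read 6.24 and 6.37 against 6.63 and 7.36. Fastkd2, an RNA-binding protein of large-subunit assembly, read 5.55 and 5.19 against 6.97 and 5.75, and the methyltransferase gene Mrm2 5.60 and 5.98 against 5.46 and 5.35. The first 2 of these were higher and the last lower without overlap (limma adjusted p = 0.841 for each).

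Translation factors had 6 higher and 7 lower means among 13 tested, with a median of -0.01. Lrpprc, which stabilises mitochondrial messages, read 5.40 and 5.55 against 5.66 and 5.90, the release factor gene Mtrf1 5.39 and 5.32 against 5.59 and 5.53, and the elongation factor gene Tsfm 5.02 and 4.76 against 5.65 and 4.93. Only Tsfm overlapped between the groups. Mitochondrial aminoacyl-tRNA synthetases and their helpers had 12 higher and 5 lower means among 17 tested, with a median of 0.05. Pars2, Nars2 and Qrsl1 had the smallest p of this list and differed by 0.25, -0.25 and 0.26. Genes of mitochondrial transcription and its nuclear regulators had 9 higher and 4 lower means among 13 tested, with a median of 0.11. Myc read 8.16 and 7.93 against 8.55 and 8.62, Tfam, which packs mitochondrial DNA, 5.14 and 5.01 against 5.20 and 5.24, and the RNA polymerase gene Polrmt 5.35 and 5.16 against 4.89 and 5.23. In these 3 lists 0 genes reached an unadjusted p under 0.05, beside 5.80% of all genes, and 0 passed by limma adjusted p.

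The cytosolic ribosome and respiratory complex I are the nearest counterparts of these genes, the first in function and the second as a client. The complex I genes measured here all lie on nuclear chromosomes, so the mitochondrial ribosome does not translate these genes themselves. Cytosolic ribosomal protein genes had a median log2 difference of 0.18 over 54 tested, with 26 higher (48.1%) and 5 lower (9.26%) without overlap and 10 (18.5%) at an unadjusted p under 0.05. Complex I genes had a median of 0.29 over 28 tested, with 14 higher (50%) and 1 lower (3.57%) without overlap and 4 (14.3%) at that p. Among all genes these shares were 19.7% higher and 15.9% lower without overlap and 5.80% at that p. In both lists the median deviation from each gene's mean was negative in both Nol3+/+ arrays and positive in both Nol3-/- MPN arrays, which did not hold for either subunit of the mitochondrial ribosome. Limma called 0 genes by adjusted p in either list. Rpsa, Rps10 and Rps15 of the first list differed by 1.31, 1.06 and -0.68, and Ndufa3, Ndufa11 and Ndufa9 of the second by 1.60, 0.65 and 0.83. The difference between these lists and the mitochondrial ribosome was not tested.

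**Figure D4:**
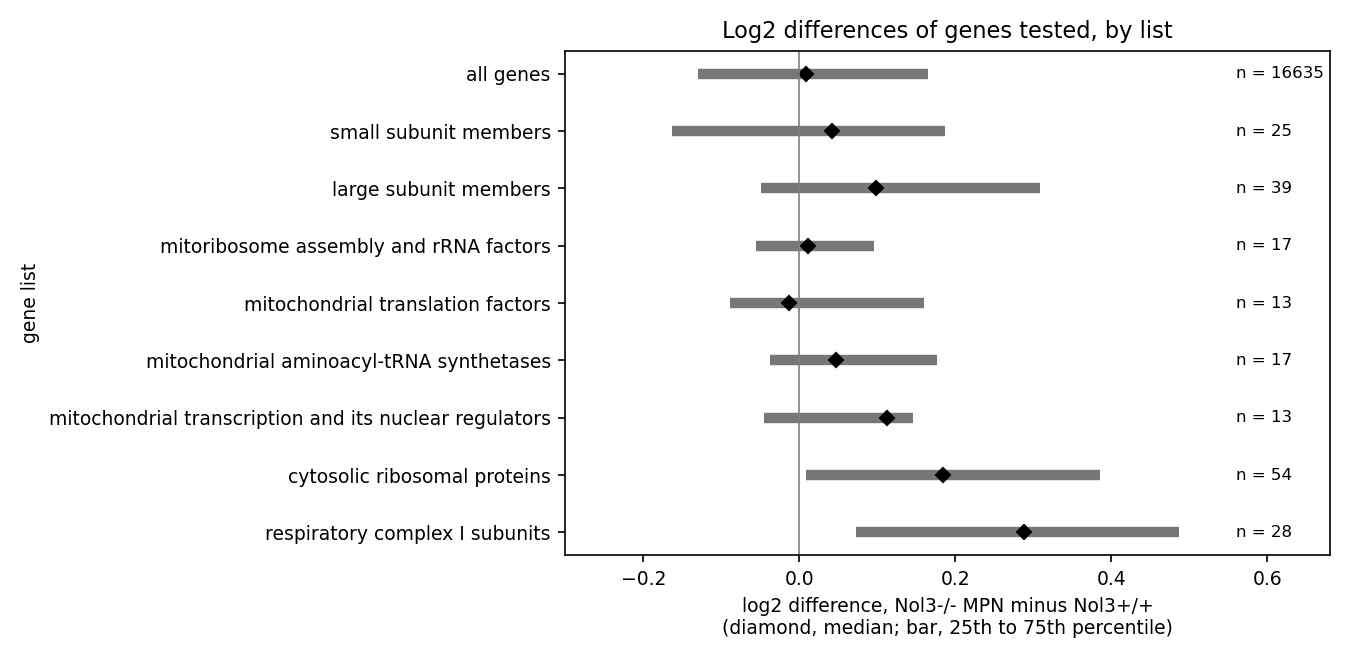
Median log2 difference (diamond, Nol3-/- MPN minus Nol3+/+) and range from the 25th to the 75th percentile (bar) of the tested genes of each list, with the number tested at the right. The medians are 0.04 for the small and 0.10 for the large subunit, beside 0.01 for all genes, 0.18 for cytosolic ribosomal proteins and 0.29 for complex I.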

How the data were processed

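Per the labels' protocols, total RNA was amplified isothermally from a single primer and labelled with a whole-transcript Affymetrix kit. The submitters' processing notes name Affymetrix Expression Console and Transcriptome Analysis Console. Versions, background correction and normalization method: not given in the sources used here. Normalized values were deposited for 41345 rows and 4 arrays, and these deposited values were treated as log2 signals. That scale rests on their range, 2.84 to 13.5, and the base is not stated.

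Genes were named through the platform annotation. Rows with 1 symbol (23521) were kept, those with several (1814) or none (16010) were not. Of several rows of a gene, the one with the highest mean was used. Genes under the 25th percentile of mean signal (4.835) were left out of the test (5545 genes). All 71 members were found in the RefSeq table of GRCm38.p6.

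Each gene was fitted by group in limma 3.58.1 under R 4.3.3 (eBayes with a variance trend, 2 residual and 3.19 prior degrees of freedom) and Benjamini-Hochberg adjustment over 16635 genes, tested first on simulated data. SE is the moderated standard error from that fit. An exact permutation test of 2 against 2 arrays cannot go below p = 0.333 and was not used. Precision is limited by the number of arrays, and no detection call was used, so dim rows may be background. The cytosolic ribosomal list leaves out kinase genes that share the symbol pattern.

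The members, lists and tests were chosen with earlier results of these data known. Named genes were, for each subunit, the 6 higher and 6 lower tested members with the smallest p, the 2 brightest and 2 dimmest rows, members with several rows and fixed genes of known role, and the 3 genes with the smallest p of each list of the mitochondrial pathway or its counterparts. Marker lists served as a check and are given by their medians and by their genes at an unadjusted p under 0.05. The alternatives were leaving out each array, a block for the replicate number, 2 normalizations, 2 filters, no variance trend, the mean of all rows, and placement by position in the ribosome (Mrps30 and Mrps18a with the large subunit, Mrps36 left out).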

Additional observations from a re-analysis of the deposited data

How the results depend on the processing

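The number of members past the adjusted limma threshold was 0 under all 12 alternatives, with a smallest adjusted p of a named member of 0.205 (Mrps33 without Nol3+/+ replicate 2). The replicate number as a block rests on a number only. With it, large-subunit genes at an unadjusted p under 0.05 were 4 higher and 1 lower and small-subunit genes 0 and 1. Together these were 9.38% of the members tested, beside 5.84% of all genes, and 4 of the 5 members called remained, all but Mrpl13. With 2 pairs, whether the numbers pair the arrays cannot be settled from the labels, and the gaps between replicates correlated between the groups at r = 0.0485 across all genes and at r = 0.337 across the 64 members.

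Leaving out 1 array assumes that the lone array of its group varies like the other group. Members at an unadjusted p under 0.05 then numbered 6 without Nol3+/+ replicate 1, 10 without Nol3+/+ replicate 2, 5 without Nol3-/- MPN replicate 1 and 3 without Nol3-/- MPN replicate 2, against 5.57%, 11.4%, 3.44% and 4.92% of all genes, and 3, 2, 2 and 1 of the 5 called in all arrays were among them. Small-subunit counts at that p ranged from 0 to 1 higher and 0 to 2 lower, and large-subunit counts from 2 to 5 higher and 1 to 2 lower. Counts without overlap are easier to reach with 1 array on a side. They ranged from 7 to 10 higher and 6 to 10 lower in the small subunit. In the large subunit they ranged from 14 to 21 higher and 5 to 12 lower. The share of all genes without overlap was not computed for these fits. Whether the members exceeded it was therefore not tested. The small-subunit median ranged from -0.048 (without Nol3-/- MPN replicate 2) to 0.087, and the large-subunit median from 0.12 to 0.22 (without Nol3+/+ replicate 1).

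Single genes near 0 turned sign. The differences ranged from -0.13 to 0.11 for Mrpl10, -0.23 to 0.42 for Mrpl12, -0.19 to 0.36 for Mrpl36, -0.20 to 0.10 for Mrpl47, -0.46 to 0.014 for Mrpl57, -0.57 to 0.12 for Mrps14, -1.05 to 1.48 for Mrps16, -0.029 to 0.030 for Mrps17, -0.51 to 0.23 for Mrps18a, -0.17 to 0.29 for Mrps22 and -0.028 to 0.20 for Mrps30. Without a change of sign, leaving out an array moved others by over 1.5 times. The ranges were -0.81 to -0.013 for Mrpl19, -0.84 to -0.15 for Mrpl22, 0.25 to 1.05 for Mrpl23, -0.63 to -0.092 for Mrpl24, 0.26 to 0.82 for Mrpl3, 0.13 to 0.43 for Mrpl39, 0.36 to 0.92 for Mrpl46, -0.23 to -0.10 for Mrpl48, -0.31 to -0.10 for Mrps11, 0.092 to 0.28 for Mrps12, -0.30 to -0.031 for Mrps15, 0.027 to 1.01 for Mrps21, -0.45 to -0.0014 for Mrps28, 0.17 to 1.89 for Mrps33 and -0.42 to -0.12 for Mrps7. After quantile normalization Mrpl10 was at 0.0026 and Mrps17 at -0.0081, and with the mean of all rows Mrpl12 was at -0.072 and Mrps16 at -0.37.

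With the stricter filter, under which fewer genes are tested, the large subunit had 1 higher and 0 lower genes at an unadjusted p under 0.05 and 7 higher without overlap. Without a filter it had 2 lower at that p and 5 lower without overlap. Without the variance trend the small subunit had 1 higher, and the cause was not tested. With the mean of all rows it had 0 lower, where the rows averaged for Mrps5 differ by -0.58 and 0.12. All other counts and medians under these alternatives were within 1.5 times or 1 SD of the reported value.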
